A study of Homo sapiens with 14 samples.

Results

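The comparison described here sets cells with a large excess of wild-type U2AF1 against cells at the normal level of this splicing factor. It takes 6 of the 14 RNA-seq libraries of the study, chosen by their labels. All are from A549, a human lung carcinoma line grown as an adherent culture. The 2 control libraries carried a control siRNA and an empty vector. The 4 wild-type libraries carried a siRNA that knocks down U2AF1 and a virus expressing wild-type U2AF1, as the v1 form in 2 libraries and as the v3 form in the other 2. The 2 knockdown libraries carried the same U2AF1 siRNA with the empty vector, and 2 libraries were of untreated A549 cells. Values of these 4 libraries stand beside the comparison where they bear on it, and the S34F libraries of the study entered only the estimate of the spread. The wild-type and control groups thus differ in the siRNA, in the loss of endogenous U2AF1 and in the construct, and the comparison alone cannot tell these apart. The sources used here name neither the promoter of the construct nor the sequence of the siRNA.

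U2AF1 is the small subunit of U2AF, the heterodimer that marks the 3′ end of an intron. Its partner U2AF2 binds the pyrimidine-rich tract, while U2AF1 contacts the AG dinucleotide at the intron's end and so helps the U2 snRNP to settle on the branch site. The gene makes alternative transcripts that contain 1 of 2 mutually exclusive versions of an internal exon, which encode slightly different stretches of the protein. In lung adenocarcinoma and in myeloid neoplasms U2AF1 is known for a recurrent point mutation, S34F, whereas the libraries compared here express the wild-type protein.

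The 2 versions of that exon are shown because they are what separates the v1 from the v3 libraries in the isoform values that follow. Both are exon 3 of their transcript in GENCODE 29 (GRCh38, minus strand), at chr21:43101366-43101432 for ENST00000380276 and at chr21:43100453-43100519 for ENST00000291552. Each has 67 bases, of which 44 are identical in place and 23, in capitals, differ.
ENST00000380276: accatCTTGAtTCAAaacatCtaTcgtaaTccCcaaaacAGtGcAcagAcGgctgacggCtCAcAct
ENST00000291552: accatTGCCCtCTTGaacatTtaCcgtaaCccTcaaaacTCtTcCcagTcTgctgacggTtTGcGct

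Expression was measured as FPKM, the fragments per kilobase of transcript relative to all mapped fragments, and a gene's FPKM is the sum over its isoforms. Relative depth of the 6 libraries lay between 0.923 and 1.10, where the absolute number of reads is unknown, and 13901 to 14433 genes per library reached 1 FPKM. Replicates correlated across genes at 0.977 to 0.978. In knockdown library 1 a single short isoform took 8.81% of the FPKM sum. The epithelial keratins KRT8 and KRT18 stood at 1192 to 1573 and 1129 to 1528 FPKM. Other epithelial genes were far lower, with EPCAM at 3.34 to 5.53 FPKM and CLDN4 at 0.916 to 1.61. KRT19 had 12.5 to 60.2 FPKM and CDH1 13.98 to 34.8, and in each group KRT19 was higher and CDH1 lower in the second replicate. Of 16 epithelial genes 3 stayed below 1 FPKM in all 6 libraries. Of 14 alveolar and airway markers 11 stayed below 1 FPKM in all 6 libraries, and SFTPB, SFTPC and NKX2-1 were at most 0.178 FPKM. ABCA3, a lipid transporter of alveolar type II cells, had 9.67 and 11.4 FPKM in the controls, and the airway mucin MUC5AC had 12.2 and 23.98. The sum of that list was 23.5 to 37.0 FPKM in the controls and 20.6 to 27.5 with wild-type U2AF1. The fibroblast gene DCN was listed at 0 in all 6 libraries. Of 10 leukocyte and endothelial markers 7 stayed below 1 FPKM in all 6, and PTPRC did not exceed 0.519. The summed FPKM of that list, most of it CD68, which epithelial lines also express, was 17.6 to 32.5 in the controls and 27.7 to 44.1 with wild-type U2AF1, and its part in the results was not tested. Of 11 fibroblast markers 9 stayed below 1 FPKM, and their sum was 10.5 to 16.4 against 10.1 to 12.9.

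U2AF1 itself (ENSG00000160201, chromosome 21, 44513066 to 44527697, GRCh37) was the first check of the labels. The controls had 117 and 119 FPKM, the v1 libraries 2351 and 2877, and the v3 libraries 2366 and 3313. The knockdown libraries had 16.2 and 28.9 FPKM and untreated cells 128 and 143. All 4 wild-type libraries thus lay far above every control, knockdown and untreated library, at 23.1 times the control mean (2727 ± 461 against 118 ± 1.37 FPKM, SD, n = 4 and 2). The difference was 4.50 on the log2(FPKM + 1) scale (SE 0.27, limma adjusted p = 6.4e-05). FPKM does not tell the construct from the endogenous gene.

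The 2 exon versions separated the v1 from the v3 libraries, though the labels do not say which version each construct carries. ENST00000380276 supplied 97.9% and 97.1% of the U2AF1 FPKM in the v1 libraries, against 1.10% and 1.27% in the v3 libraries and 30.3% and 28.1% in the controls. ENST00000291552 supplied 95.4% in both v3 libraries, 1.14% and 1.69% in the v1 libraries, and 56.9% and 62.8% in the controls. The forms therefore did not overlap between the v1 and v3 groups, while untreated cells, at 29.6% and 27.8% for the former and 58.3% and 59.0% for the latter, held both in nearly the control ratio.

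**Figure D1:**
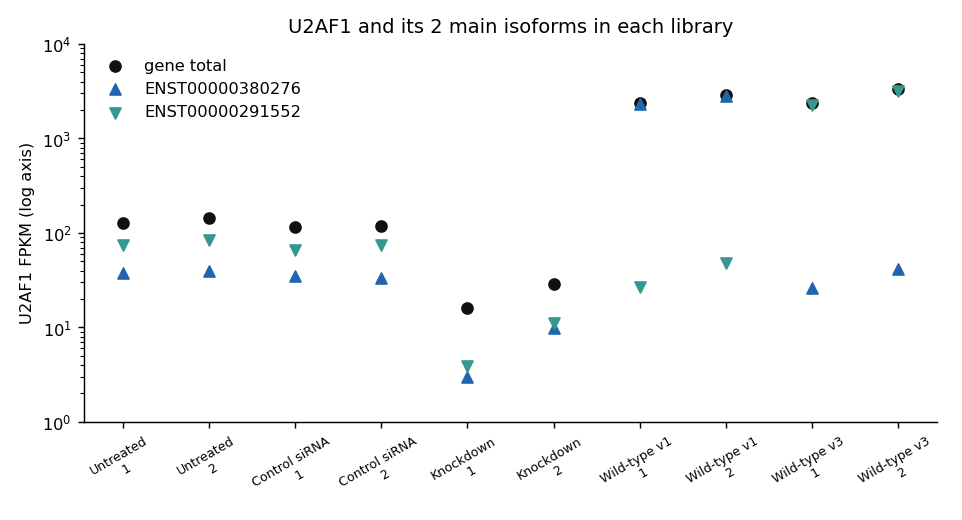
U2AF1 FPKM on a log axis in the untreated, control siRNA, knockdown, wild-type v1 and wild-type v3 libraries (1 point per library) for the whole gene and for its 2 main isoforms. The 4 wild-type libraries lie between 2351 and 3313 FPKM, and the isoform that supplies nearly all of it changes between v1 and v3.

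The partner subunit did not follow the excess. U2AF2 had 172 and 227 FPKM in the controls and 225, 238, 201 and 202 FPKM in the v1 and v3 libraries, so the groups overlapped (log2 difference 0.13, SE 0.12, limma adjusted p = 0.709). The knockdown libraries stood higher, at 273 and 340 FPKM. U2AF1L4, a paralogue of U2AF1, had 15.9 and 20.01 FPKM in the controls and 18.0 to 21.2 with wild-type U2AF1. ZRSR2, the related factor of minor introns, had 6.88 and 6.56 FPKM in the controls and 8.13, 9.66, 8.33 and 10.8 in the wild-type libraries, which do not overlap, but the difference was not called (log2 0.40, limma adjusted p = 0.384). Among 28 factors of 3′ splice site recognition U2AF1 was the single call, where 0.436% of all genes tested were called. The median log2 difference of this list was 0.085 against 0.011 over all genes tested.

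The main question was which other genes differ when U2AF1 stands in excess. Of 14233 genes tested, 62 differed from control (0.436%, limma, adjusted p under 0.05), U2AF1 itself and 61 others. Of the 62, 19 were higher (0.133%), U2AF1 among them, and 43 lower (0.302%). A change of at least 1 on the log2(FPKM + 1) scale was seen in 20, of which 6, U2AF1 among them, were higher and 14 lower. Among those that rose the most were IGFBP3, EDN2, NPPB and FGF2, which encode secreted proteins, and CDKN1A, the inhibitor of cell cycle kinases. Among those that fell were the receptors TGFBR2 and EPHB2, the endothelin-processing enzyme ECE1, and the secreted FSTL1. Without overlap between the groups lay 61 of the 62. These genes were called on the same libraries, so this is not separate support for them. Among all genes tested 13.9% had all 4 wild-type libraries above both controls and 13.1% had all 4 below.

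The size of this list depends on how the spread is estimated. Libraries with the same replicate number deviated together, and with the replicate number as a block the fit called 547 genes (3.84%), 247 higher (1.74%) and 300 lower (2.11%), among them all 62. Leaving out 1 library at a time took the count to 34 and 11 without control 1 and 2, to 6 and 13 without v1 library 1 and 2, and to 5 without either v3 library, and a fit on the 6 libraries alone called U2AF1 only. IGFBP3, ECE1 and FSTL1 were called in every alternative except that last one, in which their adjusted p-values were 0.072, 0.076 and 0.115, whereas each of the others in the plot of named genes lost its call under at least 1 alternative that left out a library.

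IGFBP3 encodes the main carrier of insulin-like growth factors in serum and tissue fluid (ENSG00000146674, chromosome 7, 45951949 to 45961473, GRCh37). It had 179 and 161 FPKM in the controls, 361 and 351 in the v1 libraries and 388 and 419 in the v3 libraries, with a log2 difference of 1.15 (SE 0.094, limma adjusted p = 0.00075). All 4 wild-type libraries lay above both controls, which the rule for names required. Their mean was 2.23 times the control one (380 ± 30.4 against 170 ± 12.7 FPKM, SD, n = 4 and 2). The knockdown libraries, at 323 and 276 FPKM, lay between the groups, and untreated cells, at 170 and 195, lay by the controls.

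EDN2 encodes endothelin 2, a vasoactive peptide made as an inactive precursor. The controls had 10.6 and 10.96 FPKM, and the wild-type libraries 38.0, 29.4, 39.4 and 31.4 (log2 difference 1.58, SE 0.24, limma adjusted p = 0.031). ECE1, the protease that cuts endothelin precursors into active peptides (ENSG00000117298, chromosome 1, 21543740 to 21671997), moved the other way, from 34.6 and 38.3 FPKM to 14.9, 14.04, 15.0 and 14.3. That fall was 1.27 on the log2 scale (SE 0.11, limma adjusted p = 0.0013). Neither gene overlapped between the groups, which the rule for names required. In the knockdown libraries EDN2 had 33.4 and 20.5 FPKM and ECE1 12.9 and 13.8, on the wild-type side of the controls for both genes.

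NPPB and FGF2 also rose. NPPB, the precursor of brain natriuretic peptide, is low in A549: it had 0.108 FPKM in control 1 and was listed at 0 in control 2, against 2.47, 1.86, 3.04 and 2.04 FPKM with wild-type U2AF1 (log2 difference of FPKM + 1, 1.66, SE 0.27, limma adjusted p = 0.035). No ratio is given against a control at 0. FGF2, a fibroblast growth factor, went from 21.7 and 17.8 FPKM to 37.0, 33.2, 35.1 and 39.8 (log2 0.85, SE 0.14, limma adjusted p = 0.035). The knockdown libraries again lay between, at 31.1 and 24.5 FPKM for FGF2, and held 2.24 and 1.53 FPKM of NPPB.

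CITED2 and CCAR1 were 2 more of the 12 named rises. CITED2, a transcriptional coregulator that binds p300 and CBP, had 6.02 and 5.25 FPKM in the controls and 14.6, 12.5, 15.6 and 20.3 in the wild-type libraries, a log2 difference of 1.32 (SE 0.21). CCAR1, a regulator of the cell cycle and apoptosis, had 63.3 and 67.1 FPKM against 114, 115, 107 and 115 (log2 0.78, SE 0.11). For both genes the knockdown libraries were near the wild-type ones, at 13.2 and 13.3 FPKM for CITED2 and 105 and 102 for CCAR1. Untreated cells had 87.1 and 93.6 FPKM of CCAR1, above both controls, and wild-type U2AF1 did not differ from them by a call (log2 0.31, limma adjusted p = 0.181). CAV2, a protein of caveolae, and STOM, the membrane protein stomatin, had 1.69 and 1.65 times the control mean, and NDFIP2, an adaptor for ubiquitin ligases of the NEDD4 family, had 1.63 times. PADI1, an enzyme that converts arginine residues to citrulline, had 2.59 and 2.41 FPKM in the controls and 5.09 to 7.19 with wild-type U2AF1. The limma adjusted p-values of these 6 genes lay between 0.019 and 0.046, and none stayed below 0.05 under every alternative.

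CDKN1A encodes p21, which blocks cyclin-dependent kinases and is a classical target of p53. The controls had 94.0 and 97.0 FPKM, the v1 libraries 176 and 133, and the v3 libraries 186 and 165 (1.73 times the control mean, log2 0.77, SE 0.13, limma adjusted p = 0.035). Here the knockdown libraries, at 95.2 and 98.0 FPKM, were at the control level, and the wild-type libraries exceeded them by 0.75 on the log2 scale (limma adjusted p = 0.023). Untreated cells stood below all of these, at 52.9 and 42.6 FPKM.

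For CYP4F3, an enzyme that inactivates leukotriene B4, untreated cells did not lie with the controls. It had 11.4 and 11.6 FPKM in the controls, 20.7, 21.2, 16.8 and 20.3 with wild-type U2AF1, and 21.1 and 18.2 in untreated cells. The difference from control was called (log2 0.73, SE 0.13, limma adjusted p = 0.046) and that from untreated cells was not (limma adjusted p = 0.988).

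Of the 20 calls that changed by at least 1 on the log2(FPKM + 1) scale, 14 were falls. FSTL1, a secreted glycoprotein of the follistatin family (ENSG00000163430, chromosome 3, 120111140 to 120170100), went from 70.5 and 83.1 FPKM to 37.2, 33.6, 32.2 and 37.9 (log2 fall 1.10, SE 0.11, limma adjusted p = 0.0033). TGFBR2, the type II receptor for TGF-beta, went from 47.7 and 36.3 FPKM to 14.2, 17.5, 13.8 and 17.4 (log2 fall 1.36, SE 0.20, limma adjusted p = 0.031). EPHB2, a receptor tyrosine kinase for ephrin B ligands, went from 32.1 and 28.3 FPKM to 10.3, 11.9, 11.9 and 15.2 (log2 fall 1.23, SE 0.18, limma adjusted p = 0.031). None of these wild-type values overlapped the controls, which the rule for names required. The knockdown libraries had 30.9 and 32.1 FPKM of FSTL1, 14.7 and 18.0 of TGFBR2, and 8.43 and 5.88 of EPHB2, so they too stood below the controls.

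PLBD2, SGPL1 and MYO10 were also among the 12 named falls, and LAMP2 was called by a smaller change. PLBD2, a lysosomal protein related to phospholipase B, had 22.2 and 28.6 FPKM in the controls and 8.22 to 9.71 with wild-type U2AF1 (log2 fall 1.43, SE 0.18). SGPL1, the lyase that degrades sphingosine 1-phosphate, had 24.96 and 25.6 FPKM against 7.60, 11.7, 8.17 and 11.9 (log2 fall 1.30, SE 0.20). LAMP2, a membrane protein of the lysosome, had 66.0 and 46.5 FPKM against 29.7 to 33.6. It was the single call among 18 tested genes of autophagy and lysosome, where 0.302% of all genes were called lower. Of these 18, 7 lay below control without overlap (38.9%) and 3 above it, where 13.1% and 13.9% of all genes did. MYO10, the unconventional myosin of filopodia, had 63.5 and 87.8 FPKM against 31.4 to 37.5 (log2 fall 1.11, SE 0.17). All 4 genes had limma adjusted p-values between 0.015 and 0.035.

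PITHD1 showed the widest gap of the named falls, from 22.5 and 22.1 FPKM to 4.51, 7.39, 6.24 and 8.71, and 6.10 and 8.66 in the knockdown libraries (log2 fall 1.62, SE 0.27, limma adjusted p = 0.035). CREBL2, a bZIP factor related to CREB, and TPD52, a protein that is often raised in carcinomas, fell to 5.60 ± 1.09 from 15.5 ± 0.0787 FPKM and to 40.4 ± 1.71 from 84.4 ± 3.45 FPKM (SD, n = 4 and 2). P4HA3, a subunit of collagen prolyl 4-hydroxylase, had 8.003 and 10.7 FPKM in the controls and 3.60 to 4.27 with wild-type U2AF1, while untreated cells had 5.73 and 4.64 and did not differ from them by a call (limma adjusted p = 0.467). EIF4HP1 is a processed pseudogene whose reads may belong to its parent gene, so its fall (log2 1.04) is uncertain. In metabolism, PFKP, the platelet form of phosphofructokinase, fell from 307 and 324 FPKM to 142, 192, 142 and 176, the single call among 21 genes of glycolysis and the hypoxia response. HMGCS1, the synthase at the start of the sterol pathway, rose from 84.0 and 82.1 FPKM to 121 to 133, the single call among 20 genes of cholesterol biosynthesis. The list as a whole did not rise with it, since 13 of the 20 were below control and the median was -0.072. Without overlap 5 of them lay below control and 2 above. Over all genes tested 0.133% were called higher and 0.302% lower, 47.9% lay below control, and 13.1% did so without overlap.

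**Figure D2:**
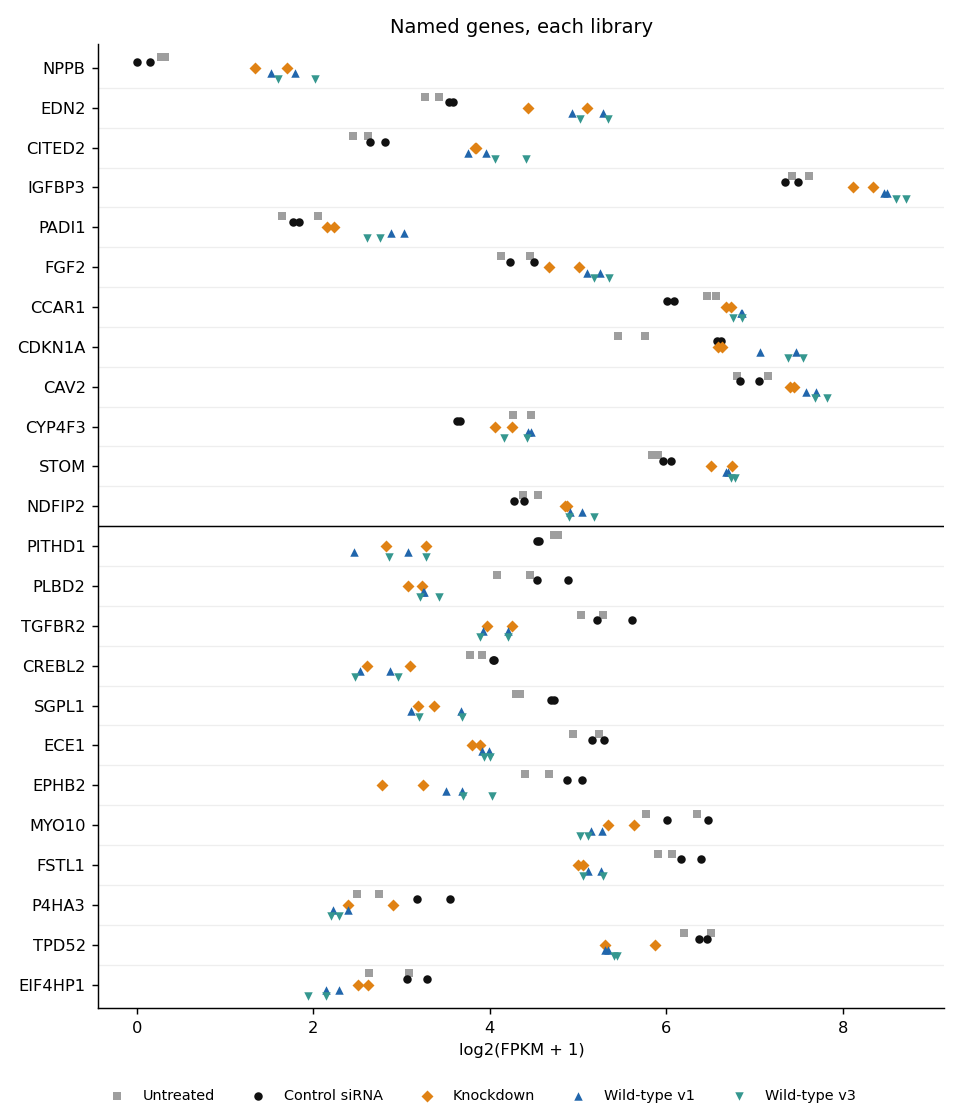
Expression as log2(FPKM + 1) of the 12 named genes that rose (above the line) and the 12 that fell (below it), with 1 point per library of the untreated, control siRNA, knockdown, wild-type v1 and wild-type v3 groups. In each row the 4 wild-type points lie on the same side of both control points, which the rule for names required. In 23 of the 24 both knockdown points lie on that side too, and for CDKN1A they lie at the control level.

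Beyond the named genes, 37 more were called, of which 6 rose by 0.49 to 0.67 and 31 fell by 0.50 to 2.12 on the log2 scale. The following were picked from them after their values were seen, for their roles near TGF-beta and Wnt signalling and the adhesion apparatus. LTBP4, which tethers latent TGF-beta to the matrix, had 52.2 and 48.7 FPKM in the controls and 26.6 to 34.9 with wild-type U2AF1. SFRP1, a secreted inhibitor of Wnt ligands, had 14.1 and 16.7 FPKM against 7.64 to 8.20, and VCL, the adhesion protein vinculin, had 123 and 130 FPKM against 75.4 to 84.3. CIRBP, a cold-inducible RNA-binding protein, rose from 67.8 and 71.3 FPKM to 101, 128, 101 and 117, and its knockdown libraries, at 74.9 and 68.0, were near control. CTC-246B18.10, an uncharacterised short gene on chromosome 19, is the one call with overlapping groups, since the v1 libraries had 4.18 and 15.0 FPKM, the v3 libraries were listed at 0, and the controls had 12.8 and 11.5.

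Because the siRNA separates the wild-type group from the control as well, the same fit was read against the other libraries for the 61 called genes other than U2AF1. The wild-type libraries differed from the knockdown libraries at an adjusted p under 0.05 in 3 of the 61 (CDKN1A, CIRBP and CTC-246B18.10), where 1.43% of all genes did. Both knockdown libraries lay beyond all 4 wild-type libraries on the control side in 22. Against untreated cells 45 of the 61 differed at that threshold, at a background of 1.76%, and in 59 both untreated libraries lay beyond the wild-type libraries on the control side, the exceptions being CYP4F3 and CTC-246B18.10. These contrasts share the wild-type libraries with the main one and are not independent of it.

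The v1 and v3 forms were also compared with control one by one and with each other. Against control, v1 alone gave 5 calls (0.0351%), 2 higher and 3 lower, and v3 alone 8 (0.0562%), 3 higher and 5 lower; with the replicate block these became 133 (0.934%) and 238 (1.67%). IGFBP3 differed by 1.06 (SE 0.11) with v1 and by 1.24 (SE 0.11) with v3 on the log2 scale, ECE1 by -1.28 and -1.26 (SE 0.13 each), and FSTL1 by -1.09 and -1.11 (SE 0.13 each). Between v3 and v1, limma called no gene of 14233, and 150 had an unadjusted p under 0.05; with the replicate block none was called and 345 had such a p. The smallest adjusted p was 0.243, for CTC-246B18.10. Among the 62 genes called in the main comparison the median absolute difference between v3 and v1 was 0.062 on the log2 scale. With 2 libraries a form, a difference that was not called is not shown to be absent.

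Of the gene lists taken from nuclear genes, the targets of p53 and the transcripts that are sensitive to RNA decay had the highest medians. In the p53 list 27 of 28 genes tested were above control, 22 of them (78.6%) without overlap between the groups. Over all genes tested 52% lay above control and 13.9% did so without overlap. The list's median log2 difference was 0.52 against 0.011 over all genes. CDKN1A was the single call, where 0.133% of all genes were called higher. With the replicate block 12 members were called, all higher, at a background of 1.74%. Picked from these 12 after their values were seen, GDF15, a stress-induced cytokine, had 57.0 and 40.2 FPKM in the controls and 108, 71.0, 113 and 86.4 with wild-type U2AF1 (limma adjusted p = 0.079, with the block 0.0028). FAS, a death receptor, had 22.2 and 17.6 FPKM against 35.7, 29.2, 39.6 and 32.8 (0.058, with the block 0.0078), and DDB2, which recognises damaged DNA, had 64.4 and 65.5 FPKM against 92.9, 95.7, 93.3 and 105 (0.111, with the block 0.028). The values of all 3 genes were higher in each wild-type library than in either control. PHLDA3 was the one member below control, with a difference of -0.0053.

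For the p53 targets the wild-type libraries also lay apart from the knockdown libraries that share their siRNA. The list's median relative to the control mean, on the log2 scale, was 0.51, 0.39, 0.54 and 0.57 in the wild-type libraries, -0.063 and 0.025 in the knockdown libraries, and -0.65 and -0.63 in untreated cells. Against the knockdown libraries 5 of 28 members were called higher (CDKN1A, DDB2, FDXR, SESN1 and SESN2) and none lower, where 1.04% of all genes were called higher. Against untreated cells, which carried neither siRNA nor vector, 24 of 28 were called higher, at a background of 1.04%. The control libraries, too, thus lay above untreated cells for this list, and the part of the siRNA transfection and of the virus in these levels was not tested.

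**Figure D3:**
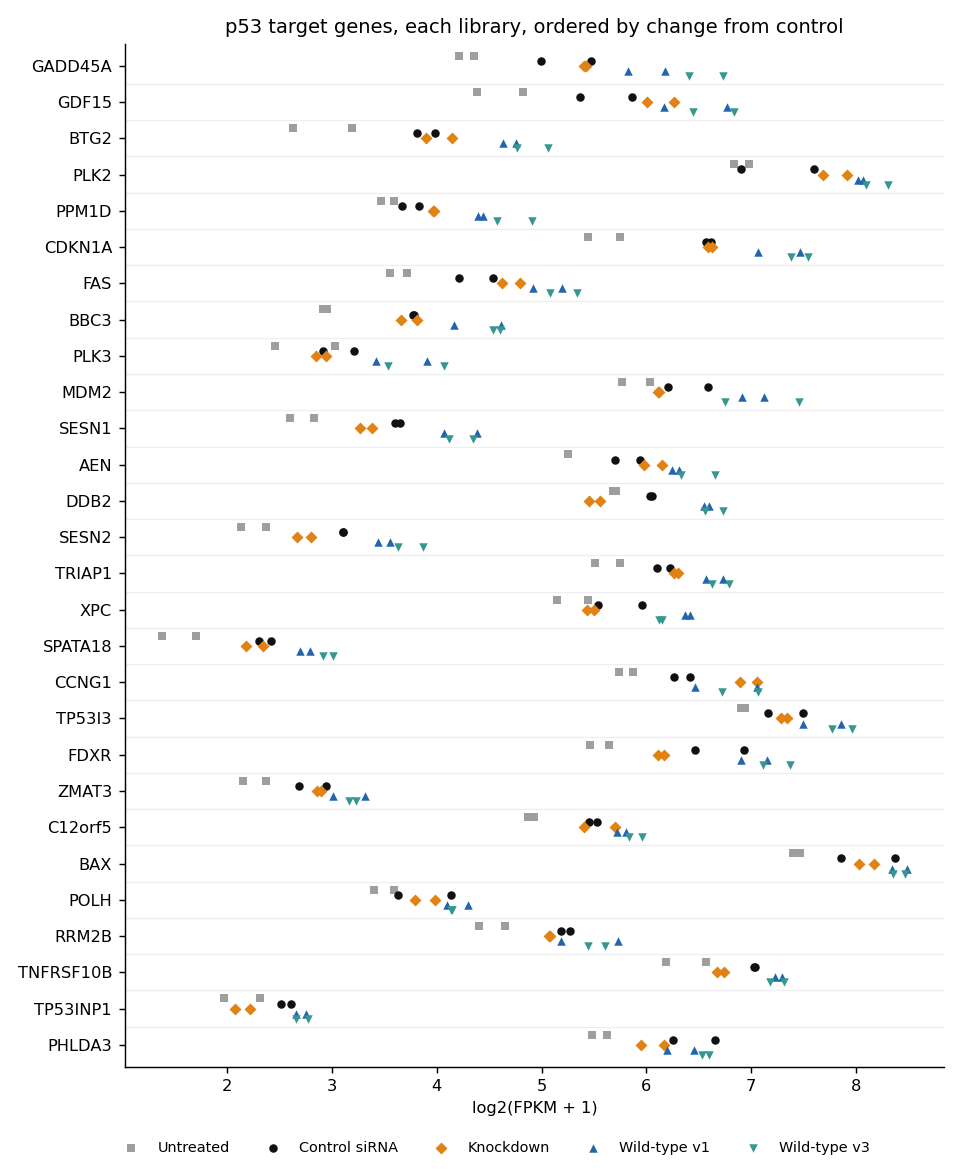
Expression as log2(FPKM + 1) of the 28 p53 target genes in each library, ordered by the change from control siRNA to wild-type U2AF1. In 22 rows all 4 wild-type points lie above both control points, and in most rows the untreated points are the lowest.

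Transcripts that cells normally destroy by nonsense-mediated decay, many of them hosts of small nucleolar RNAs, mostly lay above control. Of 14 tested 12 (85.7%) lay above control without overlap, the median log2 difference was 0.60, and none was called; with the replicate block 6 were called higher. Over all genes tested 13.9% lay above without overlap and 1.74% were called higher with the block. ZFAS1 had 204 and 135 FPKM in the controls and 300, 250, 308 and 313 in the wild-type libraries (limma adjusted p = 0.058, with the block 0.021). SNHG6 had 145 and 97.3 FPKM against 201, 218, 220 and 256 (0.055, with the block 0.016). The knockdown libraries also stood above the controls for both, at 299 and 252 FPKM of ZFAS1 and 166 and 174 of SNHG6. The list median was 0.42, 0.46, 0.51 and 0.63 in the wild-type libraries and 0.40 and 0.28 in the knockdown libraries. Among 17 factors of the decay machinery itself none was called, with a median of 0.16.

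Most replication genes lay on the other side. Of 30 genes of G1/S and DNA replication 23 were below control, 9 of them without overlap, with a median log2 difference of -0.24 and no call; with the replicate block 4 were called lower, among them CDT1, GINS2 and POLA1. Over all genes tested 47.9% lay below control, 13.1% did so without overlap and 2.11% were called lower with the block. Relative to the control mean, the list median was -0.37, -0.018, -0.33 and -0.16 in the wild-type libraries. It was -0.073 and 0.073 in the controls, so the list medians of the groups overlapped, and -0.015 and -0.00052 in the knockdown libraries. POLA1, the catalytic subunit of DNA polymerase alpha, had 15.8 and 16.8 FPKM in the controls and 12.3, 10.8, 10.1 and 8.46 with wild-type U2AF1 (limma adjusted p = 0.084, with the block 0.015), and 16.2 and 14.9 in the knockdown libraries. For G2/M and mitosis 22 of 31 were below control, 9 of them without overlap, with a median of -0.091 and no call.

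The lists of splicing regulators held no call beside U2AF1. With 0.436% of all genes called, lists this short can hold none without differing from the rest. No gene of 29 SR proteins and hnRNPs was called, 16 were above and 13 below control, and the median was 0.011. None of 8 kinases of SR proteins was called either (median 0.13). For cytosolic ribosomal proteins 36 of 37 were above control and 23 without overlap, but the median was 0.16 and no member was called. With the replicate block RPS27 was called higher. Over all genes tested 52% lay above control, 13.9% did so without overlap and 1.74% were called higher with the block. The 15 mitochondrially encoded genes were all above control without overlap, with a median of 0.81 and no call. Their summed FPKM was 40126 and 20080 in control 1 and 2 and 42198 to 57212 in the wild-type libraries, so control 2 alone was far below, and against untreated cells the median was -0.062. The part of RNA quality in this was not tested.

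Of 18 mesenchymal and TGF-beta response genes none was called, with a median of -0.063, and with the replicate block 2 were called higher (CTGF and CYR61) and 2 lower (FN1 and TGFBI), where 1.74% of all genes were called higher and 2.11% lower. CYR61, a matrix protein induced by growth factors, had 47.5 and 36.9 FPKM in the controls and 91.9, 60.0, 98.7 and 86.1 with wild-type U2AF1 (limma adjusted p = 0.058, with the block 0.0025). TGFBI, a matrix protein induced by TGF-beta, had 465 and 484 FPKM against 231, 290, 250 and 307 (0.059, with the block 0.0078). These 2 genes thus differed from control in opposite directions. No member was called among 18 genes of NF-kB and inflammatory cytokines (median 0.29), 16 interferon-stimulated genes (-0.043), 21 NRF2 targets (0.13), 24 of the unfolded protein and integrated stress responses (0.080), 8 of heme synthesis (0.10), 12 epithelial genes (0.099) or 14 replication-dependent histones (0.024). With the replicate block 4 members of these lists were called, where it called 3.84% of all genes. They are given as values and not as a result about the lists. OAS3, an interferon-induced sensor of double-stranded RNA, was lower (-0.74, limma adjusted p = 0.060, with the block 0.0093), as was ALAD, an enzyme of heme synthesis (-0.57, 0.211, with the block 0.029). SESN2, a stress-induced gene that the p53 list also holds, was higher (0.52, 0.189, with the block 0.047), as was OCLN, a protein of tight junctions (0.57, 0.152, with the block 0.049). The block also added ADM, higher, to the call in glycolysis and hypoxia, and ULK1, lower, to that in autophagy and lysosome.

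**Figure D4:**
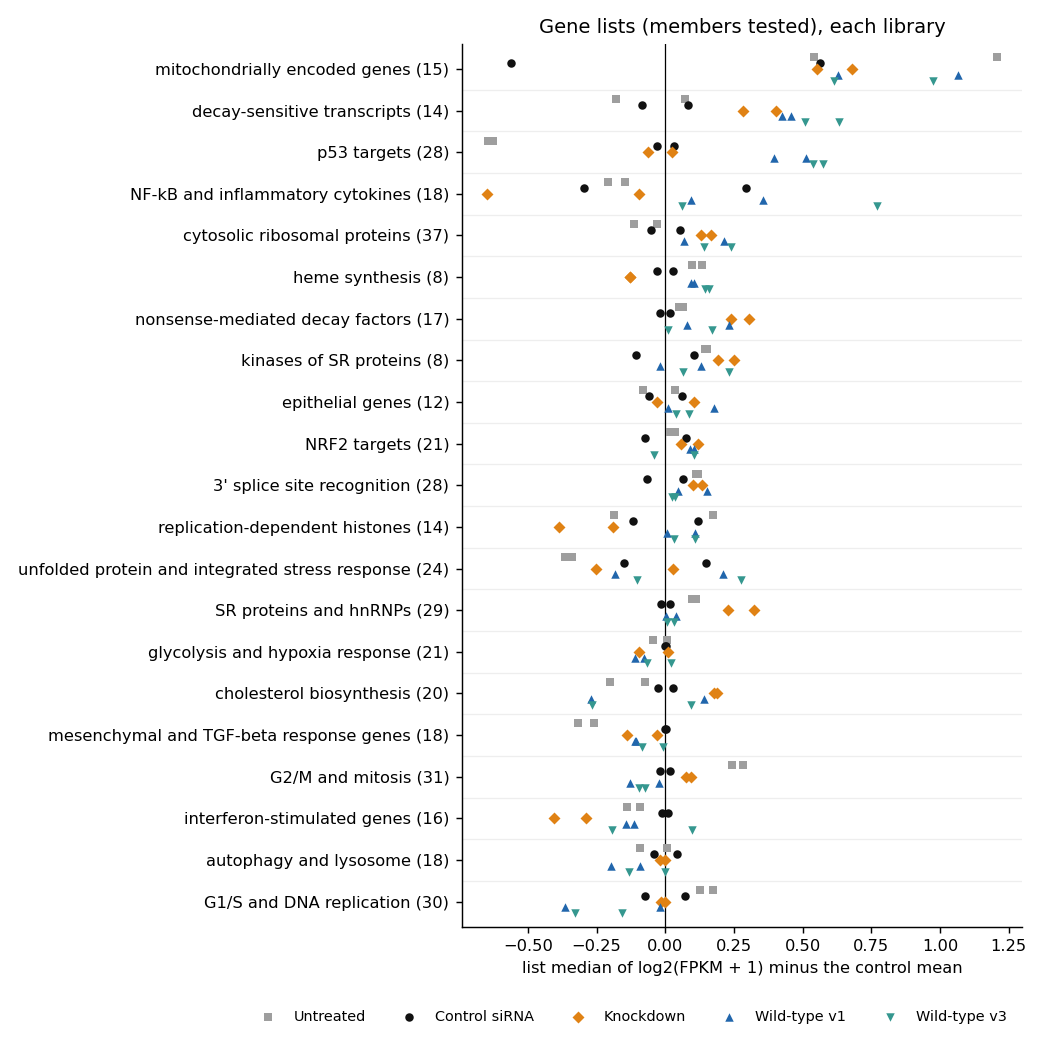
Median over the members of each gene list of log2(FPKM + 1) minus the mean of the 2 control siRNA libraries, with 1 point per library; the number of members tested stands beside the name. The wild-type points lie right of both control points for p53 targets (0.39 to 0.57) and decay-sensitive transcripts (0.42 to 0.63), and the 2 control points of the mitochondrially encoded genes lie far apart.

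Since U2AF1 acts in splicing, the share of each gene's FPKM in each isoform, its usage, was compared next. Of 41727 isoforms tested, limma called 2 (0.00479%), both used less with wild-type U2AF1, and 2640 had an unadjusted p under 0.05. ENST00000527943 of ABI3BP, a matrix protein, supplied 41.9% and 33.5% of its gene in the controls and was listed at 0 in all 4 wild-type libraries (-37.7 points, SE 2.18, limma adjusted p = 0.00077, with the block 0.0028). It was at 0 in the untreated libraries as well, and at or near 0 in the knockdown libraries, so the controls alone stood apart. The gene is low, at 0.506 to 4.06 FPKM in the 6 libraries.

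ENST00000395477 of WNK2, a kinase that regulates ion transport, supplied 23.4% and 25.2% in the controls and 0.000332%, 0.259%, 9.04% and 4.81% with wild-type U2AF1 (-20.8 points, SE 1.98, limma adjusted p = 0.035). With the replicate block its adjusted p was 0.094, so that call was lost. Here too untreated cells were near 0 and the knockdown libraries, at 3.39% and 5.18%, were low. For MOB4, a subunit of the STRIPAK complex, ENST00000409916 supplied 23.2% and 29.5% in the controls, 0.279% to 9.98% with wild-type U2AF1, 4.92% and 3.06% in untreated cells and about 0 in the knockdown libraries, and was not called (limma adjusted p = 0.061). PRKY, an expressed pseudogene that shares sequence with a close relative and is uncertain for that reason, and ZNF503 likewise had all other libraries below both controls (limma adjusted p = 0.053 and 0.061). For CDH23, untreated cells lay with the controls instead. ENST00000461841 supplied 35.7% and 29.9% in the controls and 25.6% and 43.2% in untreated cells. It supplied 0.185% and 0.269% in the knockdown libraries and 0.184% to 0.269% with wild-type U2AF1, and was not called (limma adjusted p = 0.139). That gene is low, at 1.28 to 2.66 FPKM in the 6 libraries.

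In 2 of the 10 named isoforms used less, neither of them called against control, the knockdown libraries were not low. ENST00000452499 of KRTCAP3 supplied 25.8% and 46.4% in the controls and 41.7% and 43.5% in the knockdown libraries, and was listed at 0 in all 4 wild-type and both untreated libraries (limma adjusted p = 0.090 against control and 0.014 against knockdown). ENST00000538145 of RHBDL3, a rhomboid-like protein, supplied 27.6% and 26.8% in the controls, 27.6% and 34.1% in the knockdown libraries and at most 2.12% with wild-type U2AF1 (limma adjusted p = 0.154 against control and 0.020 against knockdown). Both genes are low, with KRTCAP3 at 0.684 to 1.965 FPKM and RHBDL3 at 1.30 to 3.63 FPKM in the 6 libraries.

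No isoform used more passed the threshold. In 2 of the 10 named isoforms the knockdown libraries were at the control level, and both are annotated as retained introns, as is that of INADL. For POLD3, a subunit of DNA polymerase delta, the retained-intron transcript ENST00000530163 supplied 7.27% and 7.81% of the gene in the controls and 27.1%, 39.9%, 32.1% and 38.9% with wild-type U2AF1 (26.9 points, SE 4.53, limma adjusted p = 0.234). The knockdown libraries were at 5.91% and 6.74% and differed from the wild-type ones (limma adjusted p = 0.049), and untreated cells were at 6.85% and 12.04%. For ZNF236, a zinc finger gene, ENST00000583488 was at about 0 in the controls and the knockdown libraries and supplied 16.9%, 23.4%, 21.8% and 13.7% with wild-type U2AF1 (limma adjusted p = 0.234, against knockdown 0.056). POLD3 as a gene had 23.7 and 21.5 FPKM in the controls and 24.3 to 40.1 with wild-type U2AF1.

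Other isoforms with more usage were also higher in the knockdown libraries. ENST00000382043 of NIN, which encodes the centrosomal protein ninein, had 6.28% and 6.66% in the controls, 36.4%, 30.03%, 33.0% and 27.8% with wild-type U2AF1, and 25.8% and 23.3% in the knockdown libraries (limma adjusted p = 0.154). ENST00000549124 of the antisense RNA BCDIN3D-AS1 had 1.79% and about 0 in the controls, 46.5% to 52.7% with wild-type U2AF1, and 46.4% and 43.3% with the knockdown (limma adjusted p = 0.115); its reads may be shared with the gene on the other strand. LEPROTL1, INADL, SYTL4, RBMS3 and NUMBL had differences of 12.1 to 29.5 points with adjusted p-values of 0.154 to 0.234. Untreated cells too lay above both controls for INADL, SYTL4, RBMS3, NUMBL and BCDIN3D-AS1, but not for LEPROTL1 or NIN. For INADL and SYTL4 they had 17.2% to 18.9% and 24.01% to 24.2%, against 5.18% to 6.47% and 8.81% to 11.6% in the controls. For RBMS3 and NUMBL they had 20.9% to 34.6% and 10.5% to 11.2%, within the wild-type range, against 1.07% to 6.79% and 0.149% to 0.191%. Except for RBMS3 and NUMBL, they lay below all 4 wild-type libraries. The cause was not tested.

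**Figure D5:**
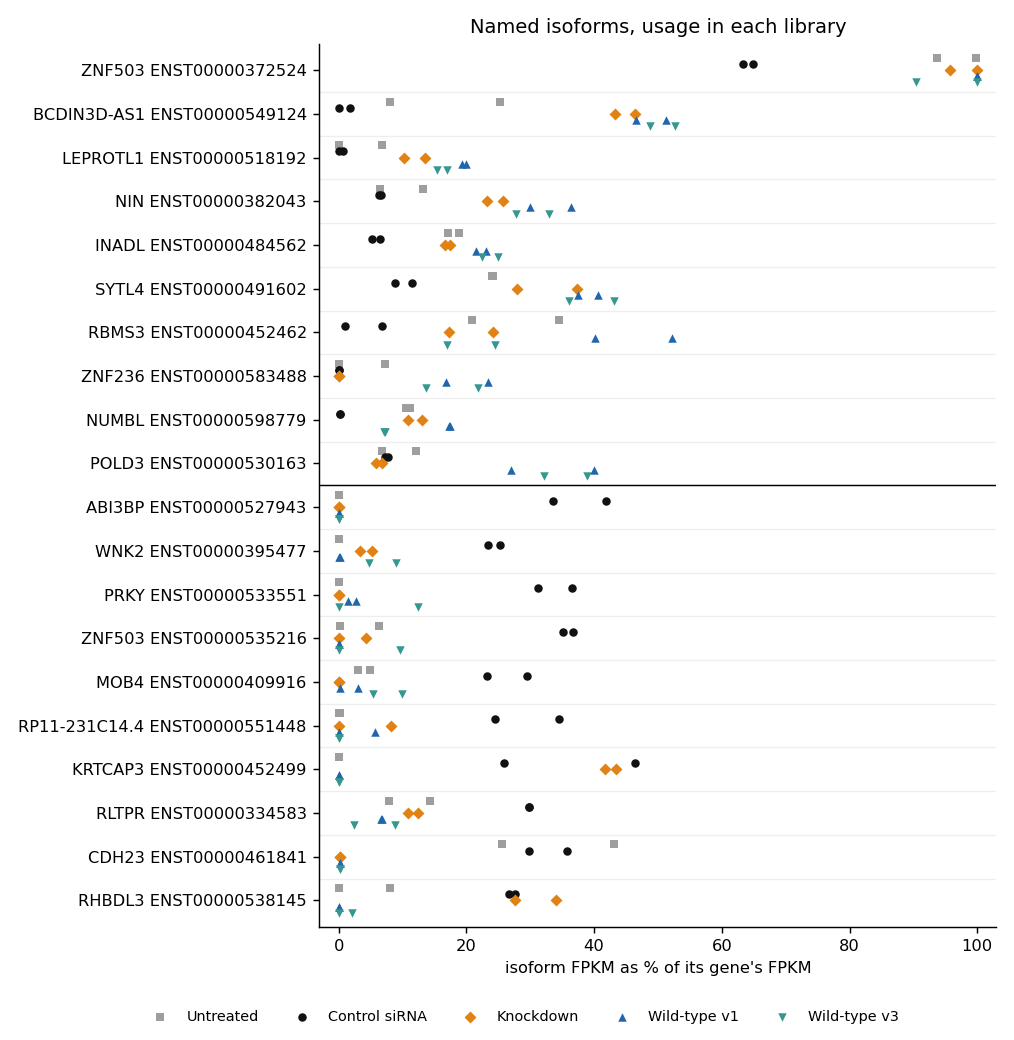
Usage (percent of the gene's FPKM) of the 10 named isoforms used more (above the line) and the 10 used less (below it) with wild-type U2AF1, with 1 point per library. The POLD3 row shows the 4 wild-type libraries at 27.1% to 39.9% apart from all others, and the ABI3BP row shows the 2 controls apart from all others.

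With v1 alone 4 isoforms were called against control (0.00959%; those of U2AF1, ABI3BP and WNK2 named above) and with v3 alone 1 (0.0024%), that of ABI3BP. Between v3 and v1 the 2 calls (0.00479%) were the 2 isoforms of U2AF1. The next was ENST00000438717 of FER, a tyrosine kinase, with 0.294% and 1.04% in the v1 libraries, 37.9% and 29.8% in the v3 libraries, and 7.07% and 12.9% in the controls, which was not called.

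Over all tested nuclear genes except U2AF1, the part of FPKM in isoforms annotated as retained introns was 5.05% and 6.21% in the controls and 5.44%, 7.38%, 5.23% and 6.75% in the wild-type libraries. The groups overlapped (exact permutation test, two-sided, p = 0.533, where 0.0667 is the smallest p that 4 against 2 libraries allow). For isoforms annotated as targets of nonsense-mediated decay the controls had 3.50% and 3.71% and the wild-type libraries 3.57%, 3.71%, 3.54% and 3.83% (exact permutation test, two-sided, p = 0.600). In both groups the second replicates had more retained-intron isoforms than the first. Against the control of the same replicate number, all 4 wild-type libraries were higher for both classes, by 0.17 to 1.17 points for retained introns and by 0.0084 to 0.12 points for decay-annotated isoforms. An exact permutation test within replicate numbers gave p = 0.222 and 0.333 (two-sided, where 0.111 is the smallest p that its 9 arrangements allow), so neither test can settle a difference with these libraries.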

How the data were processed

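The submitters' processing notes name Trimmomatic 0.30, TopHat2 2.0.12 and the build GRCh37; the quantifier is not given in the sources used here. By their headers, the deposited tables hold the authors' isoform FPKM with confidence bounds and a coverage signal, whose ratio to FPKM gave the relative depth. The labels do not say whether replicates were separate cultures; if not, the p-values reflect technical spread.

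Gene FPKM was the sum over isoforms. Genes with a mean of at least 1 FPKM over the 14 libraries (14244, less 11 with a failed estimate) entered limma 3.58.1 (R 4.3.3) on log2(FPKM + 1), which understates changes of low genes, with a mean for each of 7 groups and an intensity trend (7 residual and 3.92 prior degrees of freedom). The contrast was the mean of v1 and v3 minus control siRNA, Benjamini-Hochberg adjusted. Usage was tested likewise in percent, for isoforms with a mean of 5 to 95%. Deviations of same-numbered libraries correlated at 0.160 to 0.571 over all 21 pairs of groups for genes, so the numbers were taken to pair the samples and a block was added as an alternative. Named genes were the 12 largest called changes in each direction without overlap between the groups, and 10 isoforms each way (filled by p), plus, from each gene list, its called members or the 2 with the smallest p. Transcript types and exon sequences came from GENCODE 29 by identifier (39026 of 41727 tested isoforms had a type). The fits were tested on simulated data. The libraries compared, the lists and the rule for names were chosen with earlier results of these data known.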

Additional observations from a re-analysis of the deposited data

Results flagged for a closer look

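The usage of 2 isoforms of U2AF1 differed between the v3 and v1 constructs by a test of that difference. ENST00000291552 was higher with v3 by 94.0 points and ENST00000380276 was lower by 96.3 points (limma adjusted p = 0.00017 for both, 2 libraries a form), in all 4 libraries. No labelled group has more than 2 libraries, so none was screened for a single deviating library.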

How the results depend on the processing

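Of the gene results, U2AF1 was called under all 14 alternatives; of the other named genes IGFBP3, ECE1 and FSTL1 were called under 13. U2AF2, not called, turned from 0.13 to -0.068 without control replicate 1 (adjusted p = 0.858) and lay between that and 0.32 without 1 library. The 62 called genes became 38 (14 higher, 24 lower) with a mean FPKM of at least 0.1, 1 with the 6 libraries alone, 547 with the replicate block, 9 without the 2 libraries of which 1 short isoform took 33.1% and 8.81% of the FPKM sum (an alternative chosen after seeing the data), and 5 to 34 when 1 library was left out; 90 were called with at least 5 FPKM. Where a group was left with 1 library, it was assumed to vary like the others. For v1 alone the 5 calls became 10 with at least 5 FPKM, 2 with the 6 libraries, 133 with the block and 3 to 11 without 1 library. For v3 alone the 8 became 1, 238 and 3 to 21 with the last 3 of these. Between v3 and v1 there was 1 call with a pseudocount of 0.1 and 1 to 3 without 1 library. For usage, the 2 calls became 1 with a gene mean of at least 5 FPKM, 25 (6 more, 19 less) with mean usage of 1 to 99%, 0 with the 6 libraries, 1 with the replicate block, 1 without the 2 libraries dominated by 1 isoform, and 4 to 31 without 1 library. For v1 usage the 4 became 39, 0 and 7 to 23 with 1 to 99%, the 6 libraries and 1 library left out. For v3 usage the 1 became 0 on an arcsine scale, 0 with at least 5 FPKM, 18 with 1 to 99%, 0 with the 6 libraries and 1 to 22 without 1 library; between v3 and v1 the 2 became 29, 0 and 3 to 10. Without 1 library the retained-intron difference of 0.57 points lay between -0.011 (without control replicate 1) and 1.14, and that of decay-annotated isoforms (0.059) between -0.042 and 0.16. Quantile and upper quartile scaling called 68 and 72 genes, with 27.9% and 27.8% of calls higher against 30.6% on the deposited scale and 45.2% with the block, and moved the median of all genes from 0.011 to 0.00096 and 0.0053. For the named genes and U2AF1 and U2AF2, 154 of the values kept direction and side of the threshold under alternatives other than leaving out a library and 50 lost the call; with 1 library left out, 36 kept both, 119 lost the call and 1 turned. The within-replicate test of the transcript types (replicate block) was chosen after seeing the data and left both differences at 0.57 and 0.059 points. The cause of these shifts was not tested.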
